A study of Mus musculus with 6 samples.

Results

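The thioredoxin and peroxiredoxin genes were taken as 10 named genes: the thioredoxins Txn1 and Txn2, the thioredoxin reductase Txnrd1, the peroxiredoxins Prdx1 to Prdx6, and the sulfiredoxin Srxn1. Every probe whose only gene symbol in the platform annotation was 1 of these was used. This gave 15 of the 25697 probes on the array and covered 8 of the 10 genes. Probes with more than 1 symbol were not assigned to a gene. No probe had Prdx5 or Prdx6 as its only symbol, so these were not analysed here. Of the 15 probes, 13 were detected (a detection p below 0.05) on 3 or more of the 6 arrays and were tested. They cover the same 8 genes. Both untested probes belong to Txn1. The rule picks probes by gene name alone, but the genes themselves were proposed with earlier results of these data known.

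The arrays report RNA from whole livers of wild-type mice of the C57BL/6 strain, each liver from its own mouse. Of these mice 3 received Ad-MafG, which the series title describes as overexpression of MafG, and 3 received Ad-Control, which the labels call Ad-CMV. Both groups thus received an Ad- construct, and no untreated liver was analysed here. Livers were collected on day 5 after a fast of 4 to 6 h. The promoter that drives MafG, the dose and the cells reached were not given in the sources used here.

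Thioredoxins are small proteins that reduce disulfide bonds in other proteins, and thioredoxin reductase, a selenoprotein, recharges them with electrons from NADPH. Peroxiredoxins break down hydrogen peroxide with a reactive cysteine, which in most of them thioredoxin then restores. When that cysteine is oxidised too far, to a sulfinic acid, sulfiredoxin can repair it in some of the family. In liver, Srxn1, Prdx1, Txnrd1 and Txn1 are known as genes that the transcription factor NRF2 can activate through antioxidant response elements, where NRF2 binds as a dimer with a small Maf protein such as MafG.

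Srxn1 rose in Ad-MafG livers, and no other member passed the test with the settings reported here. Of the 13 probes tested, 2 were higher in Ad-MafG livers at an adjusted p under 0.05, both of them Srxn1 probes, and 0 were lower. Over all 12893 probes tested, 5.91% were called higher and 3.99% lower, or 9.9% in either direction. At an unadjusted p under 0.05 the members gave 6 of 13 probes, against 29.8% of all probes. All 3 Ad-MafG livers lay above all 3 Ad-Control livers on 7 of the 13 member probes in normalized intensity, against 17.3% of all probes, and below them on 0 (35.9% of all probes were separate one way or the other). These 7 come from 4 genes, with 3 Srxn1 probes, 2 Prdx1 probes and the probes of Prdx3 and Prdx4. The median log2 fold change, Ad-MafG over Ad-Control, was 0.28 over the 13 member probes and -0.032 over all probes tested. It was above 0 for 12 of the 13 member probes, against 45.5% of all probes. With each gene read by its probe of highest mean, 1 of 8 member genes was called, against 9.75% of 8827 genes, and 4 of 8 had all Ad-MafG livers on top, against 18.3%. Probes of 1 gene share their target, so the 13 probes are not independent readings.

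**Figure D1:**
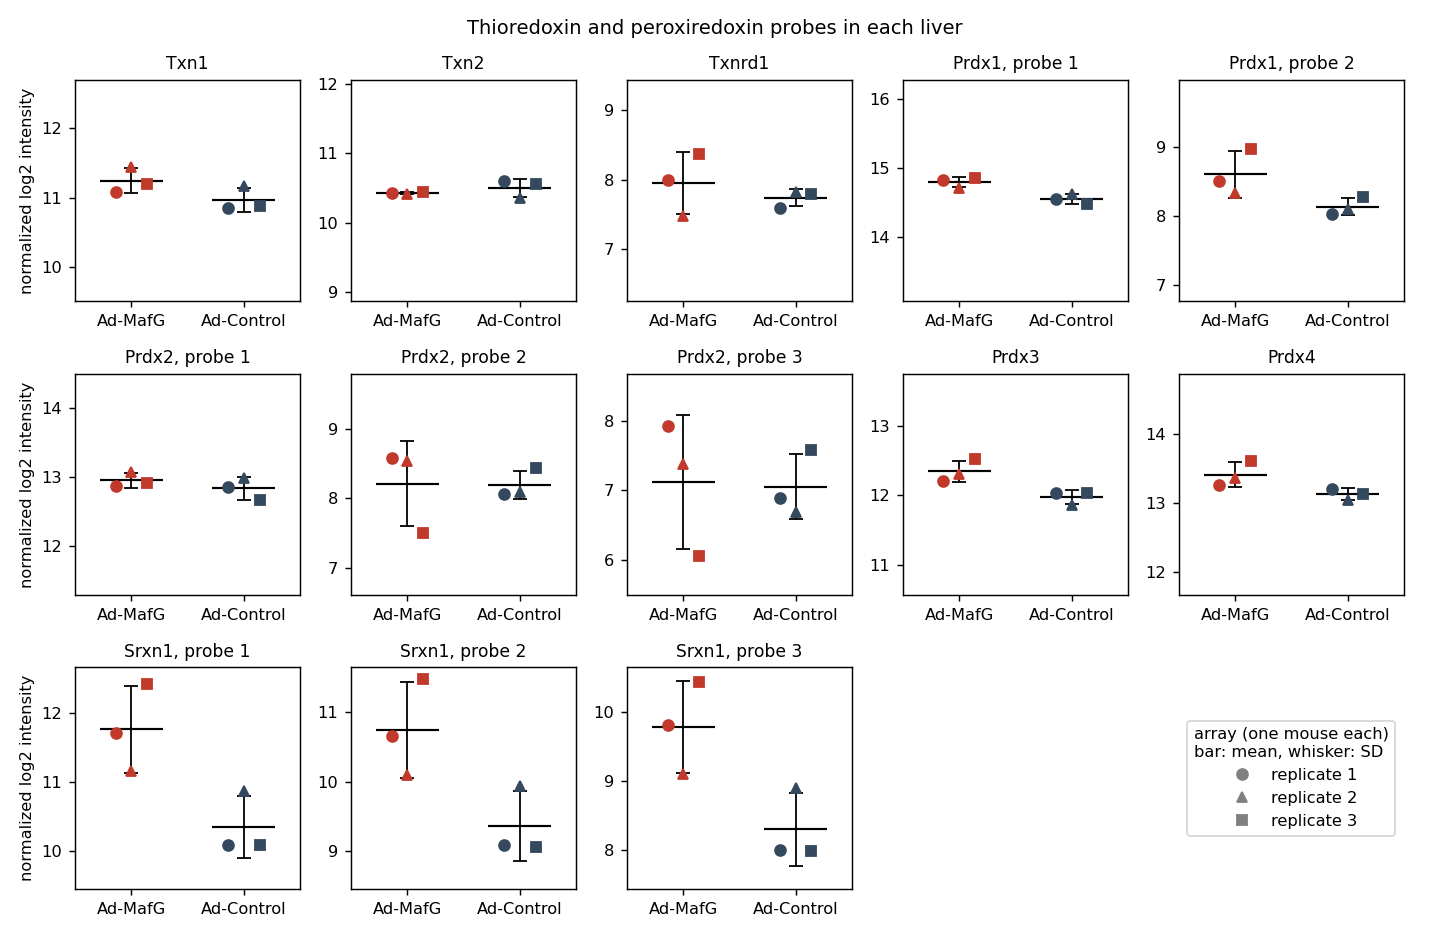
Normalized log2 intensity of the 13 tested probes, with 1 panel per probe, 1 point per liver (Ad-MafG left, Ad-Control right), a bar at the mean and whiskers of 1 SD (n = 3). Every panel spans the same height on the log2 scale. The Srxn1 panels show the largest difference between group means, and Ad-Control 2 lies closest to the Ad-MafG livers there.

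Across the arrays the median raw signal was 181.6 to 185.8 in Ad-MafG livers and 160.6 to 180.0 in Ad-Control livers, and 12802 to 13042 probes were detected in Ad-MafG livers and 12079 to 12608 in Ad-Control livers. Before normalization, 9 of the 13 member probes and 41.6% of all tested probes had raw signals higher in all 3 Ad-MafG livers, so raw signals are given beside normalized values. The single Mafg probe was lower in Ad-MafG livers, by limma at -0.54 on the log2 scale (SE 0.12, adjusted p = 0.0355). Whether that probe can bind the transcript of the Ad-MafG construct is not known here, so it does not check the labels, on which every direction rests. Over all probes 762 were higher and 514 lower in Ad-MafG livers. With arrays scaled to the median of the detected probes these were 785 higher and 870 lower, and scaled to the median of all probes 1084 higher and 387 lower. Precision throughout is limited by having 3 arrays a group.

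Srxn1 was read by 3 probes. Probe 1 (ILMN_2677772) had raw signals of 3732, 2578 and 6004 in Ad-MafG livers 1 to 3, against 1014, 2022 and 1089 in Ad-Control livers 1 to 3. Probe 2 (ILMN_2667346) had 1907, 1314 and 3237 in Ad-MafG livers, against 554, 1126 and 572 in Ad-Control livers. Probe 3 (ILMN_1229994) had 1144, 730 and 1659 in Ad-MafG livers, against 326, 615 and 335 in Ad-Control livers. On each probe the groups did not overlap, but the gap was narrow, because Ad-MafG 2 was the lowest of its group and Ad-Control 2 the highest of its own.

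After normalization probe 1 of Srxn1 averaged 11.76 ± 0.63 in Ad-MafG livers and 10.35 ± 0.45 in Ad-Control livers on the log2 scale (SD, n = 3 each). This is a 2.66-fold rise, with a 95% interval from 1.53-fold to 4.63-fold (limma, log2 fold change 1.41, SE 0.34, adjusted p = 0.0444). Probe 3 rose 2.79-fold (adjusted p = 0.0489). Probe 2 had a 2.61-fold difference with an adjusted p of 0.0581, so it lay just outside the threshold while the others lay just inside it. In whole liver RNA, as for every value here, a change in the number of cells of a type and a change in RNA per cell cannot be told apart. With the tested probes of each gene averaged first, an alternative chosen after the data were seen, the log2 fold change of Srxn1 was 1.43, at an adjusted p of 0.0497. In the authors' deposited table, the mean scaled intensity of probe 1 was 3515.9 in Ad-MafG livers and 1300.7 in Ad-Control livers. The signed difference score in the authors' deposited table was 9.221, 6.887 and 9.495 for Srxn1 probes 1 to 3, 6.36 for probe 2 of Prdx1, and highest among the members for Prdx3, at 15.1.

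The Srxn1 rise kept its direction throughout but not its call. Its log2 fold change was above 0 in all 52 alternative fits of the 3 probes and ran from 1.02 to 1.82. These fits reuse the same 6 livers, whose groups did not overlap on any Srxn1 probe. A change of filter, variance model or block could not turn the sign, so the kept direction is not independent support. With all 6 arrays, at least 1 Srxn1 probe passed in 8 of 12 alternatives. With trend and robust eBayes 0 Srxn1 probes passed (adjusted p of 0.0658 or more), and the 2 member probes called were those of Prdx3 and probe 1 of Prdx1. Leaving out Ad-MafG 1, Ad-MafG 2, Ad-MafG 3, Ad-Control 1 or Ad-Control 3 ended the call of every Srxn1 probe, with an adjusted p of 0.0517 to 0.155. Without Ad-Control 2, all 3 probes passed.

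**Figure D2:**
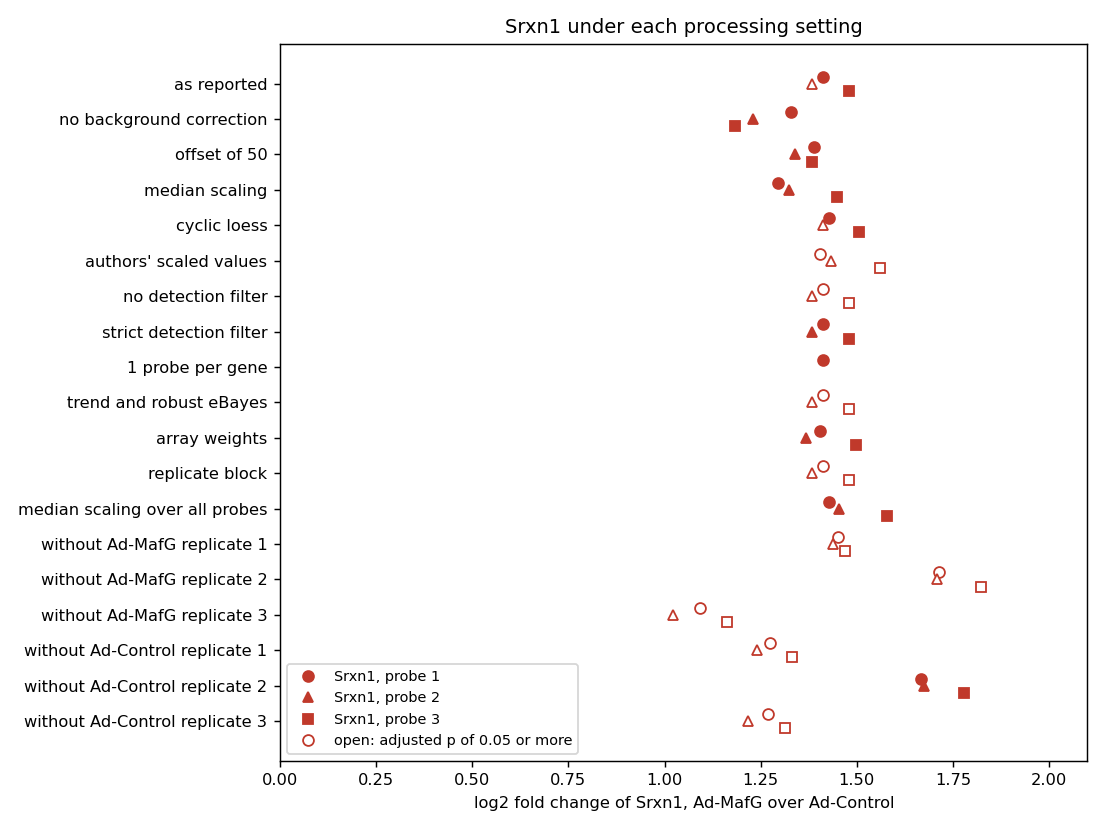
Log2 fold change of the 3 Srxn1 probes (horizontal axis, Ad-MafG over Ad-Control) under each processing setting (rows). Filled symbols have an adjusted p under 0.05 and open symbols 0.05 or more, and 1 probe stands for the gene where the setting keeps 1 per gene. No symbol lies below 1.02, and all but 1 of the rows that leave out an array hold open symbols.

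The stretches below lie before the starts of Srxn1 and Prdx1 and are shown because these were the only members whose promoter windows held the sequence TGAGTCA, the core that AP-1 and small Maf dimers are known to recognise. Sequences are from RefSeq, build GRCm38.p6, on the plus strand of each chromosome, which is also the strand of both genes, and capitals mark each motif match. The Srxn1 stretch is chr2:152105354-152105503 and runs from 170 to 21 bases before the start. The Prdx1 stretch is chr4:116685349-116685479 and runs from 250 to 120 bases before the start.
Srxn1: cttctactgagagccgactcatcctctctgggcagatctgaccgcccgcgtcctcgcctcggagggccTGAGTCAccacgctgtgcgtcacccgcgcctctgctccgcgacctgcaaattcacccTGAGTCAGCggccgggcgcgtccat
Prdx1: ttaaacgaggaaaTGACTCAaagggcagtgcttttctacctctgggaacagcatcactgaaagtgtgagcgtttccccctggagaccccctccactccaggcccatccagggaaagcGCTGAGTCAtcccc

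Of the 10 member genes, 9 had at least 1 promoter window of 250 bases before and 50 after the start in the RefSeq table, and all matches were sought on both strands. TGAGTCA began 102 and 45 bases before the Srxn1 start and 237 and 131 bases before the Prdx1 start, and 5.2% of the 32851 windows in the table held it. The longer TGANTCAGC, which overlaps TGAGTCA, began 45 bases before the Srxn1 start and 133 bases before the Prdx1 start, and 1.19% of windows held it. The antioxidant response element core TGACNNNGC was found in the Prdx1 window, overlapping the same site, in 1 of 3 Txnrd1 windows, 92 bases before the start, and in the Srxn1 window 28 bases after the start. It occurs in 12.4% of windows. These are matches of letters, and the arrays do not measure binding.

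Among the peroxiredoxins, Prdx1, Prdx3 and Prdx4 had Ad-MafG livers above Ad-Control livers without passing the test. Prdx3, the mitochondrial peroxiredoxin, had raw signals of 5260, 5546 and 6405 in Ad-MafG livers, against 3642, 3921 and 4027 in Ad-Control livers. Normalized, it averaged 12.35 ± 0.16 in Ad-MafG livers and 11.97 ± 0.10 in Ad-Control livers on the log2 scale (SD, n = 3 each), so its log2 fold change was 0.37 (SE 0.12, adjusted p = 0.0908). The groups did not overlap, and the 95% interval of the fold ran from 1.06 to 1.58. Prdx3 passed in 2 alternatives, with no background correction (adjusted p = 0.0413) and with trend and robust eBayes (adjusted p = 0.0348), and missed in the other 16.

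Prdx1, the main cytosolic peroxiredoxin, was read by a pair of probes that both gave higher values in Ad-MafG livers. Probe 1 (ILMN_1223738) had raw signals of 28890, 27989 and 30036 in Ad-MafG livers, against 23177, 26018 and 22730 in Ad-Control livers. Probe 2 (ILMN_2989706) had 549, 482 and 713 in Ad-MafG livers, against 329.5, 404.5 and 381 in Ad-Control livers. The groups were separate on both probes. The log2 fold change was 0.25 for probe 1 (SE 0.10, adjusted p = 0.157) and 0.46 for probe 2 (SE 0.18, adjusted p = 0.132). The direction of probe 1 depended on the scaling, since its log2 fold change was -0.089 with arrays scaled to the median of detected probes and 0.019 with the authors' scaled values. It passed in 1 of 18 alternatives, with trend and robust eBayes (log2 fold change 0.25, adjusted p = 0.0394). That of probe 2 stayed above 0, from 0.28 to 0.60, in its 17 alternatives.

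Prdx4, the peroxiredoxin of the endoplasmic reticulum and secretory pathway, had raw signals of 10397, 11293 and 12699 in Ad-MafG livers, against 8552, 8692 and 8828 in Ad-Control livers. The groups were separate, at a log2 fold change of 0.28 (SE 0.12, adjusted p = 0.18), or 1.22-fold with an interval from 0.994 to 1.49. Scaling to the median of detected probes brought its log2 fold change to 0.034.

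Prdx2, the peroxiredoxin abundant in red blood cells, was read by 3 probes, and the groups overlapped on each of them. Probe 1 (ILMN_2773554) had raw signals of 7992, 9173 and 8291 in Ad-MafG livers, against 6650, 8297 and 6249 in Ad-Control livers, with a log2 fold change of 0.12 (interval -0.17 to 0.41, adjusted p = 0.551). Probe 2 (ILMN_2638354) had 571, 537 and 339 in Ad-MafG livers, against 333, 405 and 413 in Ad-Control livers. Probe 3 (ILMN_1242829) had 410.5, 316 and 201 in Ad-MafG livers, against 215, 234 and 282 in Ad-Control livers. On probes 2 and 3 Ad-MafG 3 was the lowest liver of its group, which was not so on probe 1, where Ad-MafG 1 was lowest. The log2 fold change was 0.015 for probe 2 and 0.065 for probe 3, with intervals from -0.67 to 0.69 and from -1.03 to 1.16. As ratios to the Ad-Control level these intervals run from 0.631 to 1.62 and from 0.491 to 2.23, so they leave room for a fall or a rise. The sign of the log2 fold change of both probes changed when single arrays were left out.

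Txn1, the cytosolic thioredoxin, was read by 1 probe above background. It had raw signals of 2518, 3094 and 2716 in Ad-MafG livers, against 1648, 2465 and 1798 in Ad-Control livers. These raw groups were separate, but after normalization they overlapped, at 11.24 ± 0.18 in Ad-MafG livers and 10.96 ± 0.18 in Ad-Control livers on the log2 scale (SD, n = 3 each). The difference on that scale was 0.28 (SE 0.14, adjusted p = 0.234). The other Txn1 probes, ILMN_1377922 and ILMN_2588054, were not above background on any of the 6 arrays, with detection p-values of 0.068 or more, and give no fold.

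Txn2, the mitochondrial thioredoxin, was the only tested member with a log2 fold change below 0. Its raw signals were 1659, 1583 and 1681 in Ad-MafG livers, against 1388, 1465 and 1470 in Ad-Control livers. On raw signal all Ad-MafG livers were thus above all Ad-Control livers, and Txn2 had a sign below 0 only after normalization. Normalized, it averaged 10.43 ± 0.02 in Ad-MafG livers and 10.50 ± 0.13 in Ad-Control livers (SD, n = 3 each), which puts the log2 fold change at -0.073 with an interval from -0.33 to 0.18 (adjusted p = 0.686). As a ratio to the Ad-Control level the interval runs from 0.799 to 1.13.

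Txnrd1, the cytosolic thioredoxin reductase, had raw signals of 426, 326.5 and 514 in Ad-MafG livers, against 275, 357 and 305 in Ad-Control livers. The groups overlapped, since Ad-MafG 2 lay below Ad-Control 2. Its log2 fold change was 0.21 (SE 0.22, adjusted p = 0.551), and the interval ran from -0.30 to 0.72. As a ratio to the Ad-Control level that interval runs from 0.813 to 1.65. In its alternatives the log2 fold change ran from 0.002 to 0.45, and it passed in 0 of the 18.

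**Figure D3:**
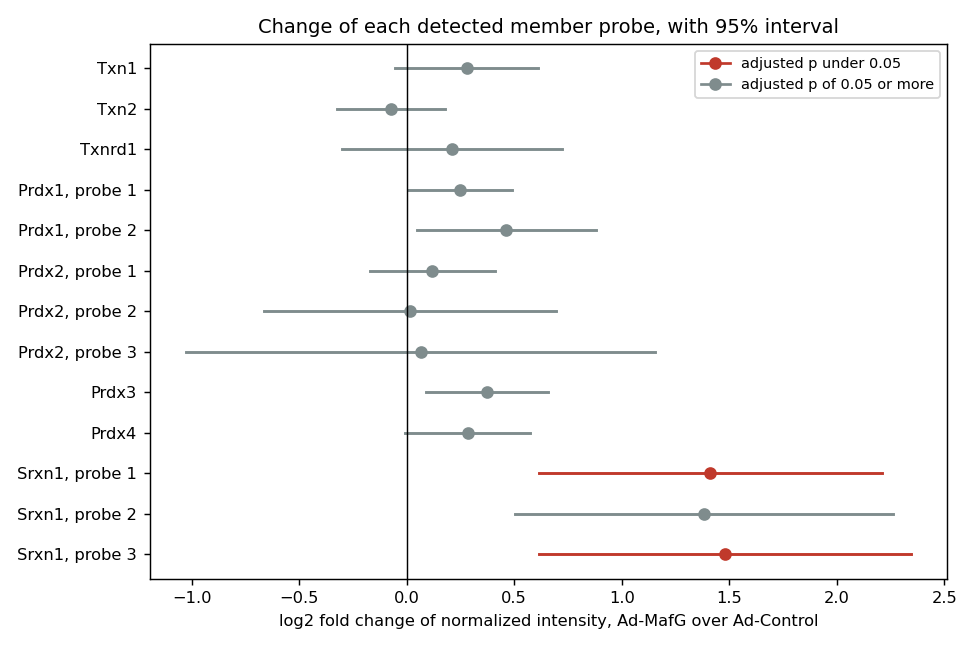
Log2 fold change of normalized intensity, Ad-MafG over Ad-Control, for the 13 tested probes (points), with 95% intervals from limma (lines). Red marks an adjusted p under 0.05. The Srxn1 probes lie between 1.38 and 1.48, and the other 10 probes between -0.073 and 0.46.

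The 3 Srxn1 probes ordered the livers alike, with Ad-MafG 3 highest and Ad-MafG 2 lowest among Ad-MafG livers and Ad-Control 2 highest among Ad-Control livers. Of the other 10 member probes, those of Txnrd1 and probe 1 of Prdx1 had the same 3 places. That makes 5 of 13 member probes, 3 of them from Srxn1, against 7.92% of all tested probes. Genes outside the members, such as Cbr3 and Nqo1, had the same 3 places too. Srxn1 also varied widely within each group. Its SD among Ad-MafG livers was 0.63 to 0.69 on the log2 scale, larger than that of at least 99% of all tested probes. Among Ad-Control livers its SD was 0.45 to 0.52, larger than that of at least 92.8% of them. Over the 13 member probes the median SD was 0.33 among Ad-MafG livers and 0.16 among Ad-Control livers, against 0.14 and 0.17 over all tested probes in these groups.

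Most related genes outside the 10 members did not pass the test. Each gene below is given by its probe with the highest mean, and over all 8827 genes read this way 6.2% were called higher and 3.56% lower. Of 15 thioredoxin system relatives tested, 0 rose and 1 fell, leaving 14 that missed the threshold, with a median log2 fold change of 0.039. At an unadjusted p under 0.05, 0 were higher and 5 lower, against 29.8% of all tested probes in either direction. The gene that fell was Txnrd3, the reductase best known from testis, at 6.49 ± 0.09 in Ad-MafG livers and 7.01 ± 0.16 in Ad-Control livers on the log2 scale (SD, n = 3 each; log2 fold change -0.51, adjusted p = 0.0424). Its raw signals overlapped between groups, and the list had 0 calls without Ad-MafG 1, Ad-MafG 2, Ad-MafG 3, Ad-Control 1 or Ad-Control 3. The mitochondrial reductase Txnrd2 had a log2 value of -0.44 for this ratio (adjusted p = 0.0844) and Txnip, an inhibitor that binds reduced thioredoxin, one of -0.46 (adjusted p = 0.149). Msrb1, a methionine sulfoxide reductase, had -0.36 (adjusted p = 0.0725), and Txnl4b had -0.31 (adjusted p = 0.141). The mean raw signal of Txnl4b was higher in Ad-MafG livers (625.7 against 607.9), so its sign rests on normalization. Those of Txnrd3, Txnrd2, Txnip and Msrb1 were lower in Ad-MafG livers.

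Of 15 protein disulfide isomerases and related thioredoxin-fold or thiol oxidase genes tested, 1 rose and 2 fell, with a median log2 fold change of 0.018. Pdia5 fell most clearly, with raw signals of 1519, 1509 and 1501 in Ad-MafG livers, against 2059, 2172 and 2289 in Ad-Control livers (log2 fold change -0.83, SE 0.11, adjusted p = 0.011). Qsox1, a sulfhydryl oxidase, fell by 0.60 in log2 fold change (adjusted p = 0.0254). Txndc12, a thioredoxin-like protein of the endoplasmic reticulum, rose 1.37-fold (adjusted p = 0.0374). The next smallest p-values belonged to Tmx1, Txndc9, Pdia6 and Selenom, with log2 fold changes of -0.37, -0.34, 0.34 and -0.28 (adjusted p of 0.107 or more). The mean raw signals of Tmx1, Txndc9 and Selenom were slightly higher in Ad-MafG livers, so their signs below 0 rest on normalization. Without Ad-MafG 3 the count of calls in this list was 0, and without Ad-MafG 1, Ad-MafG 2, Ad-Control 1 or Ad-Control 3 it was 1.

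Among 6 genes listed as clients and signalling partners of thioredoxin, 2 rose and 0 fell, with a median log2 fold change of 0.18. These were Rrm1 and Rrm2, the subunits of ribonucleotide reductase, which makes DNA building blocks with electrons from thioredoxin or glutaredoxin. Rrm1 had raw signals of 854, 794 and 682 in Ad-MafG livers, against 308, 469 and 327 in Ad-Control livers, a 2.11-fold rise (log2 fold change 1.08, SE 0.18, adjusted p = 0.0178). Rrm2 rose 1.91-fold (adjusted p = 0.0198). The stress-induced subunit gene Rrm2b had a log2 fold change of -0.030 and Hif1a, the oxygen-sensitive transcription factor, one of 0.064. Papss2, which makes sulfate donors and is not itself a client of thioredoxin, had -0.35 (adjusted p = 0.149). The DNA repair and redox factor Apex1 had 0.30 (adjusted p = 0.186). Neither Rrm1 nor Rrm2 passed without Ad-MafG 1, Ad-MafG 2 or Ad-MafG 3, and the list had 1 call without Ad-Control 1 or without Ad-Control 3. By limma 0 of the 4 superoxide dismutase and catalase genes passed, also at an unadjusted p under 0.05, with log2 fold changes of 0.24 for Cat, 0.44 for Sod3, -0.088 for Sod2 and -0.030 for Sod1.

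**Figure D4:**
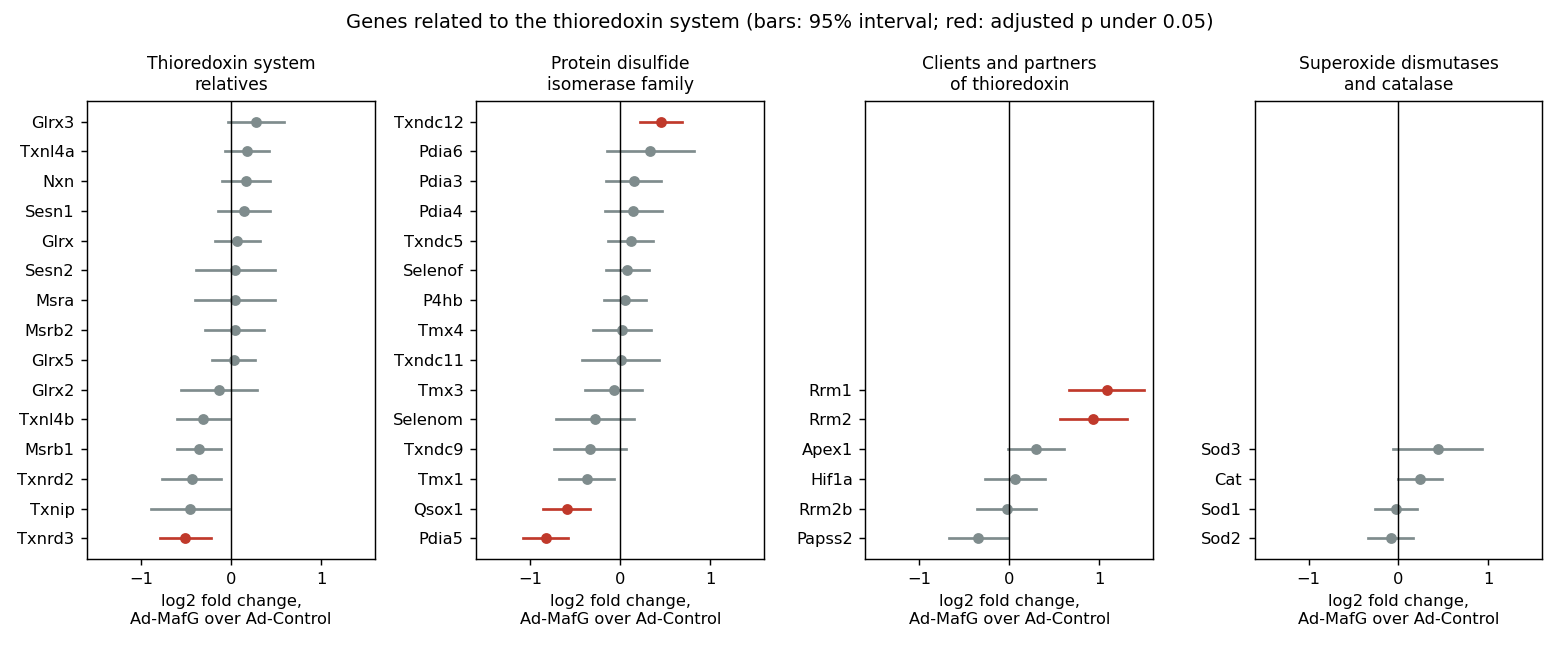
Log2 fold change, Ad-MafG over Ad-Control, of the tested genes of 4 related lists (points), with 95% intervals (lines) and red where the adjusted p was under 0.05. Rrm1 and Rrm2 lie at 1.08 and 0.93, Pdia5 at -0.83, and most other genes have intervals that include 0.

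Most NRF2 targets outside the thioredoxin system rose. Of 23 listed 17 were tested, and of these 12 rose and 0 fell. The other 5 missed the threshold, and the median log2 fold change was 1.0. Gstm3 and Gpx2 were below detection on all 3 Ad-Control arrays, and setting both to their lower bounds left that median at 1.0. The 12 were Cbr3, Gstm1, Gstm2, Gstm3, Gsta1, Gsta2, Gclc, Nqo1, Gpx2, Me1, Taldo1 and Hmox1, and the difference between this list and the members was not tested. Their log2 fold changes ran from 0.83 to 5.13 for the 10 with a measured fold, while Gstm3 was at least 11.7-fold and Gpx2 at least 3.93-fold higher. Without Ad-MafG 3 in the mean, these bounds were 9.03-fold for Gstm3 and 2.34-fold for Gpx2. Ephx1, Gclm, Tkt and Abcc2 had log2 fold changes of 0.53, 0.36, 0.38 and -0.42 and did not pass. At an unadjusted p under 0.05, 15 of the 17 were higher and 0 lower. The list had 3 calls when Ad-MafG 1 was left out, 5 when Ad-MafG 2 was, 2 when Ad-MafG 3 was, and 8 when either Ad-Control 1 or Ad-Control 3 was.

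All 9 hepatocyte markers were detected, and 0 of them passed limma's test (1 was lower at an unadjusted p under 0.05). The Alb and Tat probes read near background. Their mean raw signals were 224.8 and 216.9 in Ad-MafG livers, and 217.6 and 201.9 in Ad-Control livers. Of the 9 hepatocyte markers 0 had a log2 fold change above 0, and their median was -0.163. The summed normalized intensity of the 9 was 164992 to 184130 in Ad-MafG livers and 184421 to 196619 in Ad-Control livers. Of 13 listed Kupffer cell and macrophage markers 9 were tested and 5 rose, namely Adgre1, C1qa, C1qb, C1qc and Cd14, with a summed intensity of 23532 to 26348 in Ad-MafG livers and 12006 to 15514 in Ad-Control livers. The other 4 did not pass, at log2 fold changes of 0.27 for Clec4f, 0.24 for Vsig4, -1.06 for Marco and -1.48 for Timd4, and Marco was lower in all Ad-MafG livers (adjusted p = 0.0994). Of 10 stellate cell and fibroblast markers 4 rose, namely Col1a1, Col1a2, Col3a1 and Lum, with 15182 to 17906 in Ad-MafG livers and 13242 to 15051 in Ad-Control livers. For Col1a2, 0 of 3 Ad-Control arrays were above background. Of 12 listed erythroid markers 5 were tested and 2 fell, Alas2 by 1.13 and Klf1 by 1.34 on the log2 scale. The other 3 did not pass and had log2 fold changes above 0, with 0.71 for Tfrc, 0.49 for Hbb-bt and 0.40 for Hba-a1, so the list's median was 0.40. Its summed intensity was 16019 to 22138 in Ad-MafG livers and 12748 to 18535 in Ad-Control livers. When single arrays were left out, the calls numbered 1 to 5 for macrophage, 0 to 3 for stellate cell and 0 to 2 for erythroid markers, with the fewest macrophage calls without Ad-MafG 3. Of the tested markers of T or NK cells, B or plasma cells, neutrophils, sinusoidal endothelium and cholangiocytes, 0 passed by limma with all arrays, while 1 of neutrophils and 1 of sinusoidal endothelium were higher at an unadjusted p under 0.05. These 2 were S100a8 and Lyve1. The calls depended on the setting, as 1 neutrophil marker was called in 7 and 1 endothelial marker in 4 of the alternatives with all arrays, and 3 T or NK, 1 neutrophil and 1 endothelial marker were called without Ad-Control 2. The summed T and NK intensity was 2356 to 2374 in Ad-MafG livers and 1384 to 3386 in Ad-Control livers. Ad-Control 2, the control closest to the Ad-MafG livers on Srxn1, had the highest raw signal of its group for Cd3d, Cd3e, Cd3g, Cd8b1 and Nkg7. This was not particular to T and NK markers. Ad-Control 2 was also highest of its group for S100a8, S100a9, Acta2 and Hba-a1, though not for Lyve1 or Adgre1. Its median raw signal over all probes was 180, against 160.6 and 165.7 in Ad-Control 1 and 3. Markers named here that did not pass were singled out after their values were seen. The part of these cell types in the Srxn1 rise was not tested.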

How the data were processed

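Biotin-labelled RNA from 6 livers was read on Illumina BeadChip arrays that carry 1 slide number. The authors deposited non-normalized signal intensity per probe and array with a detection p-value, per the file headers. They also deposited scaled, background-subtracted intensity per array, and a table of group means and SDs of it with a signed difference score and the number of arrays, per the file headers. Each scaled column was a straight line of its array's raw signal, with slopes of 0.872 to 1.195. The scaling method, scanner software and genome build were not given in the sources used here.

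From the non-normalized table, background was removed with limma 3.58.1 in R 4.3.3 (normexp from the detection p-values, offset 16), followed by quantile normalization and log2. A probe was kept where its detection p was below 0.05 on 3 or more of 6 arrays, which held for 12893 of 25697. Of all probes, 23978 had 1 gene symbol. The other 1719 were treated as having none, which takes in any probe with more than 1 symbol. Groups were compared per probe with lmFit and eBayes, two-sided, with Benjamini-Hochberg adjustment over all kept probes and a threshold of 0.05. Where no array of a group was above background, the fold is only a bound, set against the lowest detected signal. The recipe was tested on simulated data.

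Named were every member probe, Mafg, list genes past the threshold and, outside the cell type markers, up to 4 further genes per list, by smallest unadjusted p. Members and lists were chosen with earlier results of these data known. Alternatives changed the background correction, normalization, values used, detection filter, unit of adjustment, variance model, array weights, replicate block and arrays used.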

Additional observations from a re-analysis of the deposited data

How the results depend on the processing

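Srxn1 kept its direction throughout, in fits that reuse the same livers. Its adjusted p ran from 0.0217 to 0.155 over the alternatives of its 3 probes. Probe 1 missed with the authors' scaled values (log2 fold change 1.40, adjusted p = 0.0527), and with no detection filter, trend and robust eBayes or the replicate block (1.41 in each). Probe 3 missed under the same settings, at 1.56 with the authors' scaled values and 1.48 in the other 3. Probe 2 passed with no background correction (1.23), an offset of 50 (1.34), median scaling (1.32), a strict detection filter (1.38), array weights (1.37) and median scaling over all probes (1.45), the last chosen after the data were seen. With single arrays left out, the log2 fold change ran from 1.09 to 1.71 for probe 1, from 1.02 to 1.71 for probe 2 and from 1.16 to 1.82 for probe 3.

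The count of member probes called, 2 as reported, was 4 with no background correction, 1 with 1 probe per gene, 0 with the replicate block, no detection filter or the authors' scaled values, and from 0 to 3 with single arrays left out. The count over all probes, 1276 as reported, was 840 with no detection filter, 112 with the replicate block and from 81 to 1707 with single arrays left out. The replicate numbers share no stated litter or day, and deviations of same-numbered livers correlated at 0.043, -0.13 and -0.12 across probes, so a call lost under the block is not read as a weaker effect.

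Of the lists, thioredoxin system relatives had 1 call as reported, 2 with no background correction, median scaling, a strict detection filter or trend and robust eBayes, and 0 with cyclic loess, no detection filter, the replicate block or median scaling over all probes. With single arrays left out it had 0 to 1 calls, disulfide isomerases 0 to 3, clients of thioredoxin 0 to 2 and NRF2 targets 2 to 12. With the replicate block these 3 lists had 0, 0 and 3 calls. Median scaling reversed probe 1 of Prdx1 (-0.089) and probe 1 of Prdx2 (-0.089). Probes 2 and 3 of Prdx2 reversed with single arrays left out, with ranges of -0.18 to 0.37 and -0.34 to 0.60 (-0.15, -0.053 and -0.036 among those of probe 2, and -0.068, -0.018 and -0.12 among those of probe 3). Txn1, Txn2, Txnrd1, Prdx3, Prdx4 and probe 2 of Prdx1 kept their direction in all alternatives run. The cause of these changes was not tested. Signals near background, as for probe 3 of Prdx2, limit what the arrays can show.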
